A study of Mus musculus with 9 samples.

Results

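The comparison of MPTP with saline took 6 of the 9 midbrain RNA-seq libraries of the series: control 1, 2 and 3 from C57BL/6 mice that received saline, and MPTP 1, 2 and 3 from C57BL/6 mice that received intraperitoneal MPTP over 7 days. They were chosen by their sample labels alone, and all 28991 genes and loci of the deposited table were read. The remaining 3 libraries, from mice that received MPTP with intravenous PF4 (platelet factor 4) every 3 days, entered the fit, where they shared in the estimate of the spread between mice, the scaling and the low-count filter, and were not compared here. The series design gives 1 mouse per library and the midbrain as the tissue, so that replicates were separate animals by the labels. Regional markers differed between libraries, and within the controls, as given with the marker check. No genetic change was named for any group, and the sources used here do not give the age, the sex, the MPTP dose or the interval between the last injection and collection.

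MPTP is a small lipophilic toxin that crosses into the brain, where monoamine oxidase B, an enzyme of astrocytes and serotonergic neurons, turns it into MPP+. MPP+ enters dopaminergic neurons through the dopamine transporter and blocks complex I of the respiratory chain, and the neurons of the substantia nigra in the ventral midbrain are known for their sensitivity to it. Astrocytes, microglia and oligodendrocytes around these neurons are known to react to the toxin or to the loss of neurons, and mice of the C57BL/6 strain are widely used as its model.

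Levels are given as CPM, the count of a gene scaled to a common library total, with totals adjusted by edgeR's TMM factors. They compare a gene between libraries, and they are not scaled for transcript length, so they do not rank different genes. Where 3 values are given for a group, they stand in the order of replicates 1, 2 and 3. Fold changes are MPTP minus control on the log2 scale with their standard error (SE) from edgeR. The 6 libraries held 33444439 to 36039211 counts in total, with 10 or more counts for 16488 to 16889 genes. A count of 3 in 1 library corresponded to 0.08209 to 0.0913 CPM, and lower values are not distinguished from 0, by counting error alone.

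The tissue label was checked against markers before any comparison, and the control libraries did not form 1 group. Slc6a3, the dopamine transporter, had 0.393 CPM in control 1 but 574 and 526 CPM in controls 2 and 3, and no more than 0.958 CPM in an MPTP library. En1, a homeobox factor that midbrain dopaminergic neurons depend on, was at 0 CPM in control 1, 7.23 CPM in control 2 and 13.7 CPM in control 3, against 0.055, 0.109 and 0.183 CPM in the MPTP libraries. Pdyn, the prodynorphin gene of striatal and other forebrain neurons, was at 96.0, 7.11 and 7.03 CPM in the controls and at 95.6, 73.4 and 183 CPM in the MPTP libraries. Control 1 thus lay with the MPTP libraries in all 3 genes, and the defining markers of midbrain dopaminergic neurons were at or near 0 in a saline library. The mean of the midbrain and hindbrain identity list was -1.40 log2 CPM in control 1 and -1.83 to -1.24 with MPTP, against 1.65 and 1.58 in controls 2 and 3. The labels were kept as given, and a difference in the dissected region between mice, or an exchange of samples, cannot be told apart from an effect of MPTP in genes that follow this split. On log2 CPM over all genes tested, control 1 correlated at 0.971 to 0.977 with the MPTP libraries and at 0.898 and 0.933 with controls 2 and 3, as a description of libraries that share one scale and one depth. Levels are therefore given by library for most genes named. For part of the genes and lists, the fold change is given again without control 1, with control 1 as the only control, or both. Where neither is given, the dependence on control 1 is not reported here. Control 1 was set apart by its values in these data, so p-values and counts without it are no independent test of genes that follow the split. In the fit with control 1 as the only control, MPTP+PF4 2 was left out as well as controls 2 and 3. The mean of the dopaminergic list was 4.22 log2 CPM in MPTP+PF4 2, against 1.03 and 0.86 in MPTP+PF4 1 and 3. The libraries left out were thus those with high levels of that list. The spread in that fit comes from the other groups, so the lone control is assumed to vary as they do.

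Across the 17285 genes tested, no gene passed an adjusted p of 0.05 with edgeR's quasi-likelihood test (0.0% in either direction; the smallest adjusted p was 0.261). At an unadjusted p under 0.05 there were 920 genes higher with MPTP (5.32%) and 2234 lower (12.9%), and with library totals in place of TMM factors the split was 1388 higher and 1639 lower. DESeq2 called 53 genes higher (0.307%) and 238 lower (1.38%) at an adjusted p under 0.05, and limma voom with sample weights called 4474 and 4469 (25.9% each). Without control 1, edgeR called 2104 of 17716 genes higher (11.9%) and 2473 lower (14.0%). With control 1 as the only control, and without MPTP+PF4 2, it called 1 of 17985 genes higher (0.00556%) and 0 lower (0.0%), and 129 (0.717%) and 115 (0.639%) passed an unadjusted p of 0.05.

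**Figure D1:**
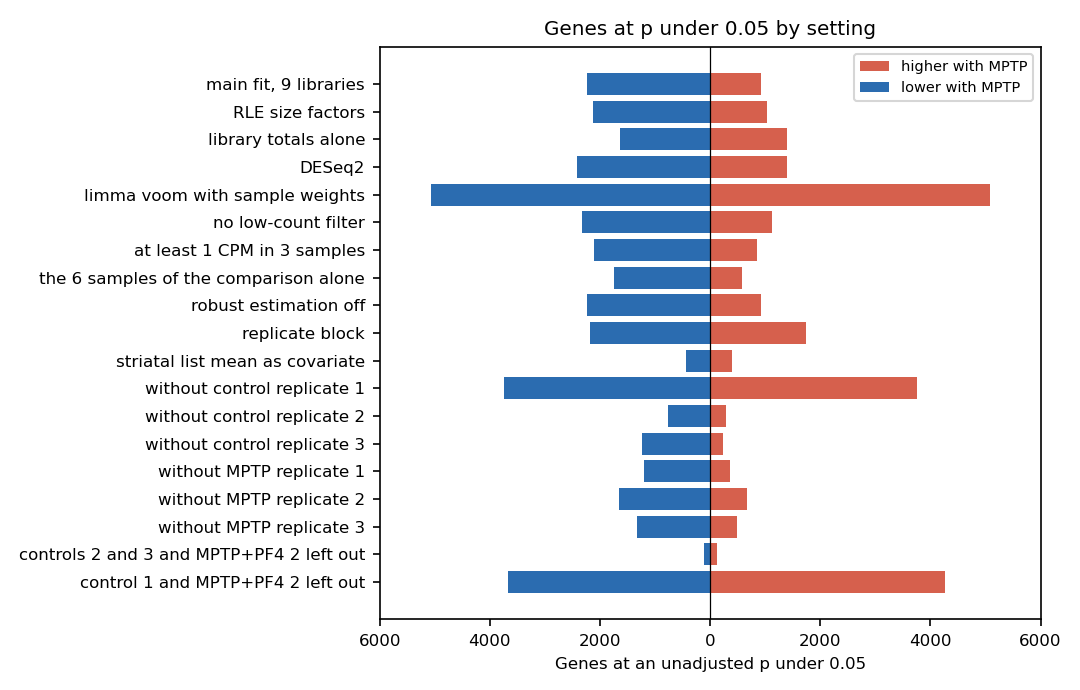
Number of genes at an unadjusted p under 0.05 (horizontal axis) higher with MPTP (bars to the right) and lower with MPTP (bars to the left) under each setting (vertical axis). The bars run from 244 genes with controls 2 and 3 and the second MPTP+PF4 library left out to 10138 with limma voom, against 3154 in the fit of all 9 libraries.

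The genes that separated all 3 controls from all 3 MPTP libraries were described first. Control and MPTP libraries did not overlap, with MPTP lower, in 1588 of the genes tested (9.19%), and with MPTP higher in 1558 (9.01%). Controls 2 and 3 on their own lay above every MPTP library in 5223 genes (30.2%) and below in 5330 (30.8%), and in 3635 (21.0%) and 3772 (21.8%) of the genes tested control 1 did not share that order. The 4 marker genes of the comparison, Il33, Serpinb1a, Tsc22d3 and Mog, were all among those lower in every MPTP library. They were chosen with earlier results of these data known, so their separation is no separate finding. Promoter windows of these genes follow where RefSeq has an entry. Counts are per gene, so they do not show from which annotated start the transcripts that differed came.

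The windows run from 250 bases before to 50 bases after an annotated start in the RefSeq annotation of the GRCm38.p6 build, 5′ to 3′ on the strand of the gene. For the first of 2 listed Il33 starts the window is chr19:29924863-29925162 on the plus strand. For the second of 3 listed Tsc22d3 starts, the only Tsc22d3 start with a motif match, it is chrX:140600473-140600772 on the minus strand. For Mog it is chr17:37023349-37023648 on the minus strand. For Zic1, a leading gene among those higher with MPTP, it is chr9:91365719-91366018 on the minus strand. Of 13 genes looked up, 9 had an entry. Serpinb1a, Zic2 and Chrdl1 are among those named only. Capitals mark matches to the motifs searched on both strands, AGAACA (the half-site of the glucocorticoid receptor, which may read TGTTCT) and CACGTG (an E-box, the motif bound by the clock factors CLOCK and BMAL1 among others).
Il33: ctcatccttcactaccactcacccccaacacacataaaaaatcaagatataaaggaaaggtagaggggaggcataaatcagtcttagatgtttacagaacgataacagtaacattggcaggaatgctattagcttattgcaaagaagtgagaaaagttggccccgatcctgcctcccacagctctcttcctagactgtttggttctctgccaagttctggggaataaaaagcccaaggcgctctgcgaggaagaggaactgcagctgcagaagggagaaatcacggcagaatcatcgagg
Tsc22d3: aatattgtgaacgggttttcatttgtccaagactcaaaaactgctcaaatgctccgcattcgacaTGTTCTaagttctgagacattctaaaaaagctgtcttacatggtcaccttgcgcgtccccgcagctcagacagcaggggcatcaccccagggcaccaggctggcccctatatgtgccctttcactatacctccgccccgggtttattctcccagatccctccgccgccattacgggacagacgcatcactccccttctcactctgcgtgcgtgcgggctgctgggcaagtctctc
Mog: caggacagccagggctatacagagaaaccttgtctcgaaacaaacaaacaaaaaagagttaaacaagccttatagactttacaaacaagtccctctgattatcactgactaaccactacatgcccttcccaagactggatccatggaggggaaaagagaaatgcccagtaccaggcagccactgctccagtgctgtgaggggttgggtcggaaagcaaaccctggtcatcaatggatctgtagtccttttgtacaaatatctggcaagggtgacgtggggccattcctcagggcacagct
Zic1: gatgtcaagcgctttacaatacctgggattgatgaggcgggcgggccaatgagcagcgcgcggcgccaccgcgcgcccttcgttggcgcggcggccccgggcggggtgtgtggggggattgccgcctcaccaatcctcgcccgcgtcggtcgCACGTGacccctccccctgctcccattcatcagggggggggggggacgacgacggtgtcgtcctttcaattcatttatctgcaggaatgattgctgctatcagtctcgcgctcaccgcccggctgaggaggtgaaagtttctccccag
AGAACA was found in 19.0% of 32851 promoter windows of this length and CACGTG in 7.15%. Counted by gene, with a match in any of its windows, the shares were 21.3% and 8.09% of 27025 genes. The Tsc22d3 window held 1 AGAACA match, 185 bases before the start, and the other 2 Tsc22d3 windows held none. The Zic1 window held 1 CACGTG match, 98 bases before the start. Among the windows not shown, that of Slc6a3, a gene lower with MPTP, also held 1 CACGTG match, 197 bases before the start. Neither motif occurred in the Il33 or Mog windows shown, which says only that these letters are not there.

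Il33 encodes interleukin 33, an alarmin of the IL-1 family that is stored in the nucleus of oligodendrocytes and astrocytes and released on damage. It was at 119, 119.7 and 132 CPM in the 3 saline controls against 61.4, 64.1 and 56.3 CPM in the 3 MPTP libraries. Each MPTP library held about the same amount, every control held more, and control 1 lay with the other controls. The log2 fold change was -1.03 (SE 0.148; adjusted p = 0.261 with edgeR, 4.56e-07 with DESeq2). It was -1.05 without control 1 (adjusted p = 0.00761 with edgeR) and -0.97 (SE 0.189) with control 1 as the only control. On the authors' length-scaled FPKM values Il33 was 46.0 ± 3.87 (SD, n = 3) in controls and 23.8 ± 2.71 (SD, n = 3) with MPTP.

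Serpinb1a encodes an intracellular serpin that inhibits neutrophil proteases. Its levels were 23.3, 38.1 and 26.3 CPM in the controls and 10.3, 7.39 and 9.46 CPM in the MPTP libraries, without overlap. The log2 fold change was -1.69 (SE 0.228; adjusted p = 0.261 with edgeR, 4.56e-07 with DESeq2), -1.83 without control 1 and -1.37 with control 1 as the only control. FPKM was 14.4 ± 3.27 (SD, n = 3) in controls and 4.66 ± 0.656 (SD, n = 3) with MPTP. Its close paralogues Serpinb1b and Serpinb1c can share reads with it, and the sources used here do not give how the counting treated such reads.

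Tsc22d3 encodes GILZ, a leucine zipper protein induced by glucocorticoids that restrains inflammatory signalling. It was at 118, 159.9 and 125 CPM in the controls and at 61.7, 67.7 and 51.8 CPM in the MPTP libraries, so that the lowest control held well over the highest MPTP value. The log2 fold change was -1.15 (SE 0.175; adjusted p = 0.261 with edgeR, 1.56e-05 with DESeq2), -1.23 without control 1 and -0.97 with control 1 as the only control. FPKM was 64.7 ± 7.71 (SD, n = 3) against 31.4 ± 5.6 (SD, n = 3).

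Mog encodes myelin oligodendrocyte glycoprotein, which sits on the outer face of the myelin sheath and appears late in oligodendrocyte maturation. It was at 168, 213 and 207 CPM in the controls and at 109.9, 57.6 and 68.8 CPM in the MPTP libraries. The groups did not overlap, although MPTP 1 stood above the other MPTP libraries. The log2 fold change was -1.32 (SE 0.258; adjusted p = 0.261 with edgeR, 0.00219 with DESeq2), -1.41 without control 1 and -1.10 with control 1 as the only control. FPKM was 108 ± 11.8 (SD, n = 3) against 45.9 ± 16.0 (SD, n = 3). In a bulk library fewer cells of a type and less RNA per cell cannot be told apart, here or for any other cell type named.

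With the mean of 14 striatal projection neuron genes added to the model, the log2 fold changes of these 4 genes were -1.04 for Il33, -1.65 for Serpinb1a, -1.05 for Tsc22d3 and -1.40 for Mog. The same model gave -0.56 for Th and -3.17 for Slc6a3, which had -3.56 and -9.89 without that term. In this model 0 genes passed the adjusted threshold, and its standard errors are not given here. Slc6a3 follows the split of the controls and kept a value of -3.17, so the striatal term did not take up all of that split. Whether the values of the 4 genes are free of a regional difference was not tested.

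**Figure D2:**
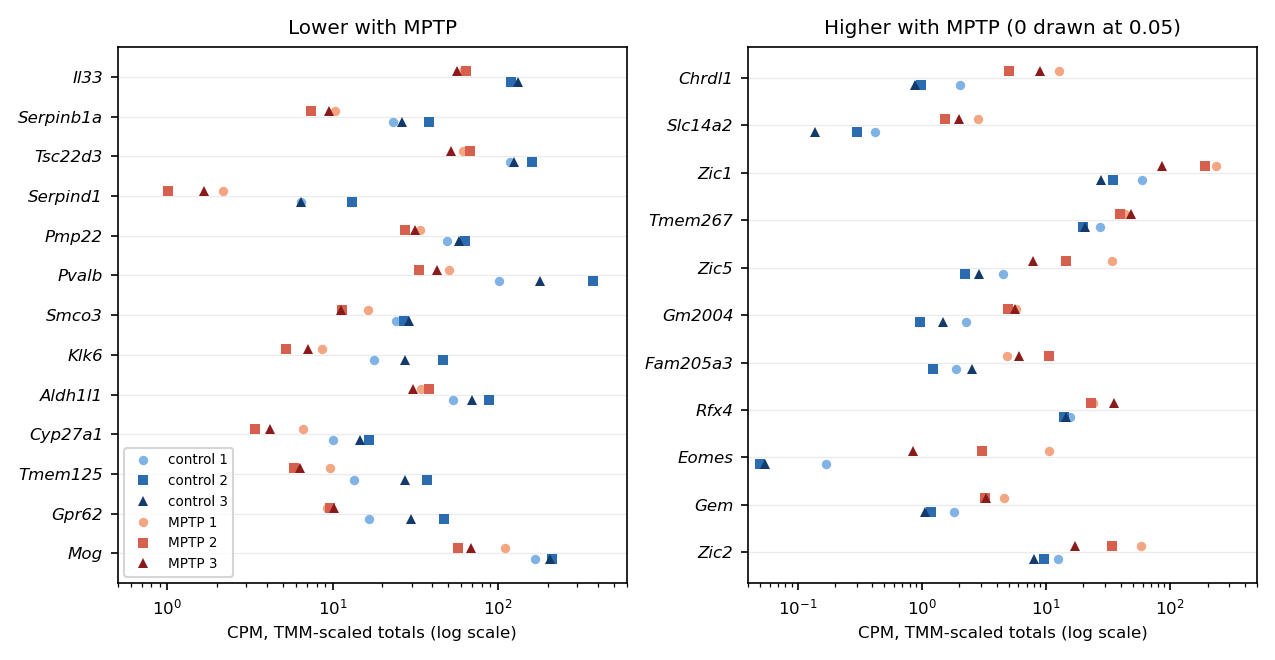
CPM on a log axis of the 12 annotated genes lower with MPTP that had the smallest unadjusted p, with Mog (left), and of 11 of the 12 higher ones (right), for each control library (blue, lower row of each gene) and each MPTP library (red), with the symbol shape giving the replicate number. In every gene drawn the 3 blue points lie on one side of the 3 red points, as in Il33 with 119 to 132 CPM against 56.3 to 64.1 CPM.

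Among genes with an Ensembl identifier and a symbol, which leaves out loci without a known gene, the 12 lower with MPTP that had the smallest unadjusted p also held Serpind1, Pmp22, Pvalb, Smco3, Klk6, Aldh1l1, Cyp27a1, Tmem125 and Gpr62. The ranking used all 3 controls, so a small spread between controls helped a gene into it, and the place of control 1 beside the other controls in these genes is no separate finding. Serpind1, heparin cofactor II, was at 6.45, 13.0 and 6.39 CPM in the controls and at 2.17, 1.01 and 1.67 CPM with MPTP (log2 fold change -2.41, SE 0.396; adjusted p = 1.91e-05 with DESeq2). Of these 12 named genes it had the largest fold change, and every MPTP library held less than the lowest control. With control 1 as the only control the value was -1.99.

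Pvalb, the calcium buffer parvalbumin of fast-firing GABAergic neurons, was at 101, 373 and 179 CPM in the controls and at 50.3, 33.4 and 42.6 CPM with MPTP. The 3 MPTP values were close to each other while the controls spread widely, with control 1 lowest. Its log2 fold change was -2.37 (SE 0.435; adjusted p = 0.000153 with DESeq2), -2.71 without control 1 and -1.26 with control 1 as the only control. Syt2, the synaptotagmin that triggers fast transmitter release in many of the same neurons, was at 92.0, 314 and 214 CPM against 34.5, 10.4 and 61.4 CPM (log2 fold change -2.54, SE 0.625; adjusted p = 0.0051 with DESeq2), again without overlap. For Syt2 the control 1 value of -1.38 had an unadjusted p of 0.13 with edgeR. Of the 16 synaptic vesicle genes tested, 12 were lower, 5 of them at an unadjusted p under 0.05 (12.9% of all genes tested), with a median of -0.25 against 0.013 over all genes tested.

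Aldh1l1, a folate enzyme used as a general astrocyte marker, was at 53.7, 88.7 and 69.2 CPM in the controls and at 34.1, 38.0 and 30.5 CPM with MPTP (log2 fold change -1.04, SE 0.202; adjusted p = 0.0035 with DESeq2). S100b, a calcium-binding protein of astrocytes and some oligodendrocytes, was at 147, 339 and 254 CPM against 72.3, 103 and 98.0 CPM (-1.44, SE 0.3). The opposite order held for Slc1a3, the astrocytic glutamate transporter GLAST, with 484, 139 and 189 CPM in the controls and 681, 647 and 589 CPM with MPTP (1.24, SE 0.415; adjusted p = 0.0805 with DESeq2). Astrocyte identity genes therefore did not move together: 9 of the 13 tested were lower and 4 higher. At an unadjusted p under 0.05, 4 were lower and 1 higher (12.9% and 5.32% of all genes tested). The median was -0.36, and it was -0.097 with control 1 as the only control. Of 12 reactive astrocyte genes, 6 were higher and 6 lower. Aspg was at 0.813, 4.19 and 1.30 CPM against 0.467, 0.657 and 0.761 CPM. It was the only one at an unadjusted p under 0.05 (12.9% of all genes tested were lower at that p). Gfap, the intermediate filament of reactive astrocytes, was at 108, 308 and 190.2 CPM in the saline libraries and 227, 82.2 and 165 CPM with MPTP, with groups that overlapped (log2 fold change -0.35, SE 0.621).

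Myelin genes were lower as a group. Of 18 mature oligodendrocyte genes, 17 had a negative log2 fold change and 13 an unadjusted p under 0.05, where 12.9% of all genes tested were lower at that p. The groups did not overlap in 11 of the 18, against 9.19% of all genes tested. DESeq2 called 7 of the 18 lower (1.38% of all genes tested), among them Mog, Klk6, Opalin, Hapln2, Cnp and Gjb1. The median was -0.93, and it was -1.08 without control 1, -0.57 with control 1 as the only control and -0.71 with the striatal term. The summed level of the 18 genes was 17879 to 28589.7 CPM in the controls and 8478 to 17545 CPM with MPTP, which did not overlap but nearly met, since control 1 was the lowest control and MPTP 1 the highest of the MPTP libraries.

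Klk6, a secreted protease of myelinating cells, was at 17.8, 46.6 and 27.3 CPM against 8.63, 5.23 and 7.06 CPM (-2.13, SE 0.402; adjusted p = 0.00043 with DESeq2). Opalin, an oligodendrocyte membrane protein, was at 58.1, 93.7 and 67.6 CPM against 41.6, 21.7 and 25.6 CPM (-1.30, SE 0.3). Hapln2, which organises the matrix at nodes of Ranvier, was at 29.0, 42.3 and 38.8 CPM against 25.0, 17.5 and 16.0 CPM (-0.91, SE 0.228). MPTP 1 was the highest of the MPTP libraries in these genes. Not every member shared the order, as Ugt8a (-0.031), Ermn (-0.069) and Anln (0.032), which myelinating cells also express, had fold changes near 0.

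Of 11 oligodendrocyte precursor genes, 8 were lower, 3 at an unadjusted p under 0.05 (12.9% of all genes tested), with a median of -0.23 (-0.090 with control 1 as the only control). Olig1, a lineage transcription factor, was at 172, 436 and 311 CPM in the controls and 156, 136 and 129 CPM with MPTP (-1.13, SE 0.325), so control 1 lay close to MPTP 1. C1ql1, a secreted synapse organiser that precursors express, was at 9.22, 67.1 and 27.3 CPM against 6.21, 10.5 and 6.51 CPM, and there control 1 lay among the MPTP values.

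Cholesterol synthesis enzymes, which supply myelin among other membranes, were lower in 16 of 19 genes with a median of -0.35 (-0.27 with control 1 as the only control). The groups did not overlap in 9 of the 19, with MPTP lower, against 9.19% of all genes tested. At an unadjusted p under 0.05, 6 were lower (12.9% of all genes tested). Mvd, the decarboxylase of the mevalonate pathway, was at 12.3, 36.5 and 25.3 CPM in the saline libraries and 9.81, 10.6 and 9.28 CPM with MPTP (-1.32, SE 0.352; adjusted p = 0.0418 with DESeq2). Msmo1, a sterol demethylase, was at 103, 173 and 128 CPM against 86.5, 85.8 and 69.2 CPM (-0.74, SE 0.203). Cyp27a1, a sterol hydroxylase that starts the side-chain route of cholesterol breakdown, was at 10.1, 16.5 and 14.6 CPM against 6.62, 3.37 and 4.17 CPM (-1.54, SE 0.299; adjusted p = 0.00129 with DESeq2). In all 3 the lowest control was control 1 and lay above the highest MPTP value.

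The remaining genes of the 12 lower ones also kept controls and MPTP libraries apart. Pmp22, a small membrane protein best known from peripheral myelin, was at 49, 63.5 and 57.9 CPM against 33.9, 27.3 and 31.3 CPM (-0.88, SE 0.156). Gpr62, an orphan receptor gene, was at 16.5, 47.3 and 29.8 CPM against 9.29, 9.60 and 10.2 CPM (-1.69, SE 0.329). Smco3 and Tmem125, membrane protein genes, had values of -1.04 (SE 0.194) and -1.84 (SE 0.357). DESeq2 called all 4, with adjusted p of 0.000379, 0.00177, 0.0012 and 0.00117.

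The wider families of the marker genes were also counted. Of 16 IL-33 and IL-1 family genes listed, 11 passed the low-count filter, of which 3 were higher and 8 lower, 2 and 3 of them at an unadjusted p under 0.05 (5.32% and 12.9% of all genes tested), and the median was -0.19. Il18, the cytokine closest to IL-1 beta in its processing, was at 17.1, 27.8 and 21.7 CPM in the saline libraries and 13.7, 14.6 and 16.7 CPM with MPTP (-0.56, SE 0.213; adjusted p = 0.168 with DESeq2). Il1rapl2, an accessory protein-like receptor, was at 1.74, 1.45 and 1.07 CPM against 2.83, 3.53 and 2.83 CPM (1.11, SE 0.359; adjusted p = 0.0855 with DESeq2). Il1rl1, the receptor of IL-33, lay between 0 and 0.393 CPM in all 6 libraries, too low to compare. Of 19 serpin genes listed, 14 passed the low-count filter, of which 8 were lower, 3 at an unadjusted p under 0.05 (12.9% of all genes tested), namely Serpinb1a, Serpind1 and Serpinb6a (34.2, 72.4 and 54.3 CPM against 31.8, 29.1 and 31.6 CPM).

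Of 18 glucocorticoid response genes, 12 were lower, 5 at an unadjusted p under 0.05 (12.9% of all genes tested), with a median of -0.18 (-0.14 with control 1 as the only control). DESeq2 called 3 of the 18 lower (1.38% of all genes tested). Next to Tsc22d3 these were Mt2, a metal-binding metallothionein (51.8, 191 and 99.0 CPM in the saline libraries, 39.4, 30.6 and 45.1 CPM with MPTP; -1.57, SE 0.410), and Plin4, a lipid droplet coat protein (9.84, 16.7 and 13.7 CPM against 6.35, 3.48 and 2.77 CPM; -1.68, SE 0.454). Fkbp5, the classic glucocorticoid-induced chaperone partner, was at 39.4, 30.1 and 40.1 CPM against 45.2, 33.3 and 45.7 CPM, with overlapping groups (0.18, SE 0.219). Tsc22d3 and Fkbp5 thus did not share a direction.

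The annotated genes higher with MPTP were led by Chrdl1, Slc14a2 and the Zic family. Chrdl1 encodes chordin-like 1, a secreted antagonist of BMP4 that astrocytes make. It was at 2.05, 0.994 and 0.882 CPM in the controls and at 12.8, 5.01 and 8.92 CPM with MPTP, with every MPTP library above every control (2.77, SE 0.479; adjusted p = 2.12e-05 with DESeq2). The value was 3.25 without control 1 and 2.12 (SE 0.572) with control 1 as the only control. Slc14a2, a urea transporter, was at 0.421, 0.301 and 0.138 CPM against 2.86, 1.53 and 1.98 CPM (2.87, SE 0.507; adjusted p = 0.000321 with DESeq2), a low transcript in all libraries.

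The Zic genes encode zinc finger transcription factors of dorsal neural tube, cerebellum, septum and other forebrain regions and of meningeal cells. Zic1 was at 59.0, 34.4 and 27.8 CPM in the controls and at 233, 191 and 85.9 CPM with MPTP (2.07, SE 0.407; adjusted p = 0.000487 with DESeq2). Zic2 was at 12.6, 9.70 and 8.02 CPM against 58.2, 34.2 and 17.0 CPM (1.85, SE 0.403). In both MPTP 1 was highest and MPTP 3 lowest among the MPTP libraries, and MPTP 3 still lay above the controls. Zic4 was at 4.99, 4.91 and 2.04 CPM against 23.8, 15.9 and 7.91 CPM (1.99, SE 0.569), and Zic5 at 4.49, 2.23 and 2.89 CPM against 33.9, 14.4 and 7.91 CPM (2.55, SE 0.525). These 4 family members therefore had the same order of the MPTP libraries, and DESeq2 called each of them. Zic1 and Zic4 start 3204 bases apart on chromosome 9 on opposite strands (RefSeq, GRCm38.p6). With control 1 as the only control the values were 1.53 (SE 0.585) for Zic1, 1.53 for Zic2, 1.67 for Zic4 and 2.06 (SE 0.873) for Zic5.

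Eomes, the T-box factor of intermediate progenitors and some glutamatergic neurons, was at 0.168, 0 and 0.0551 CPM in the controls and at 10.6, 3.06 and 0.852 CPM with MPTP. The controls were near the level of 3 counts, and the MPTP libraries followed the order of the Zic genes. Marker genes of cerebellar granule and Purkinje cells gave no common direction, with 14 listed, 11 tested, 6 above 0 and 5 below 0 and a median of 0.018. The 4 of them that were higher at an unadjusted p under 0.05 (5.32% of all genes tested) were Zic1, Zic2, Zic4 and Eomes, and Pvalb was the 1 that was lower.

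The 12 higher genes also held Tmem267, Gm2004, Fam205a3, Rfx4 and Gem, with log2 fold changes of 0.95 (SE 0.195), 1.78 (SE 0.371), 1.91 (SE 0.411), 0.89 (SE 0.193) and 1.45 (SE 0.316). Rfx4, a transcription factor of radial glia and astrocytes, was at 15.6, 14.1 and 14.5 CPM in the controls and at 23.9, 23.1 and 35.1 CPM with MPTP. Gem, a small GTPase that dampens calcium channels, was at 1.82, 1.18 and 1.07 CPM against 4.59, 3.26 and 3.32 CPM. Control 1 was the highest control in all of these except Fam205a3.

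Of 22 BMP signalling genes, Chrdl1 among them, 14 were higher. At an unadjusted p under 0.05, 3 were higher (5.32% of all genes tested) and 2 lower (12.9%), and the median was 0.27. Bmpr1a, a BMP receptor, was at 79.6, 50.2 and 49.2 CPM in the saline libraries and 90.0, 78.8 and 90.7 CPM with MPTP (0.54, SE 0.224). Id1, a direct target of the pathway, was at 16.6, 54.1 and 27.2 CPM against 14.6, 11.0 and 16.9 CPM (-1.21, SE 0.390), and Chrd, which encodes chordin, at 4.26, 9.91 and 20.8 CPM against 5.58, 4.41 and 3.77 CPM (-1.34, SE 0.5). For Bmpr1a, Id1 and Chrd, control 1 lay inside the range of the MPTP libraries, and the adjusted p with DESeq2 was 0.183, 0.0892 and 0.12.

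Motile cilia genes of ependymal cells were higher in 12 of 12, with 7 at an unadjusted p under 0.05 (5.32% of all genes tested) and 5 without overlap (9.01% of all genes tested). The median was 1.26, and it was 1.89 without control 1, 0.64 with control 1 as the only control and 1.17 with the striatal term. The summed level was 21.3 to 52.6 CPM in the controls and 53.9 to 122 CPM with MPTP, so control 1, the highest control, was just below the lowest MPTP library. Dnah10, an inner arm dynein, was at 1.49, 1.51 and 1.30 CPM against 3.88, 3.15 and 2.77 CPM (1.19, SE 0.352; adjusted p = 0.043 with DESeq2) and was the only one that DESeq2 called (0.307% of all genes tested). Ak7, an adenylate kinase of cilia, was at 4.26, 0.844 and 0.331 CPM against 18.3, 6.02 and 9.34 CPM (2.63, SE 0.907). Foxj1, the master factor of motile cilia, was at 12.9, 4.88 and 6.70 CPM against 22.0, 7.61 and 14.6 CPM, and the groups overlapped (0.85, SE 0.463). Beside this, the choroid plexus, which lies next to ependyma, varied by library. Ttr, its most abundant transcript, was at 945, 5.15 and 0.221 CPM in the controls and 2923, 32.7 and 62.7 CPM with MPTP. All 12 choroid plexus genes had positive fold changes (median 1.32), none reached an unadjusted p of 0.05, and the median was 0.026 with control 1 as the only control. The summed level was 18.0 to 1086 CPM in the saline libraries and 111 to 3255 CPM with MPTP, and its part in the ependymal values was not tested.

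**Figure D3:**
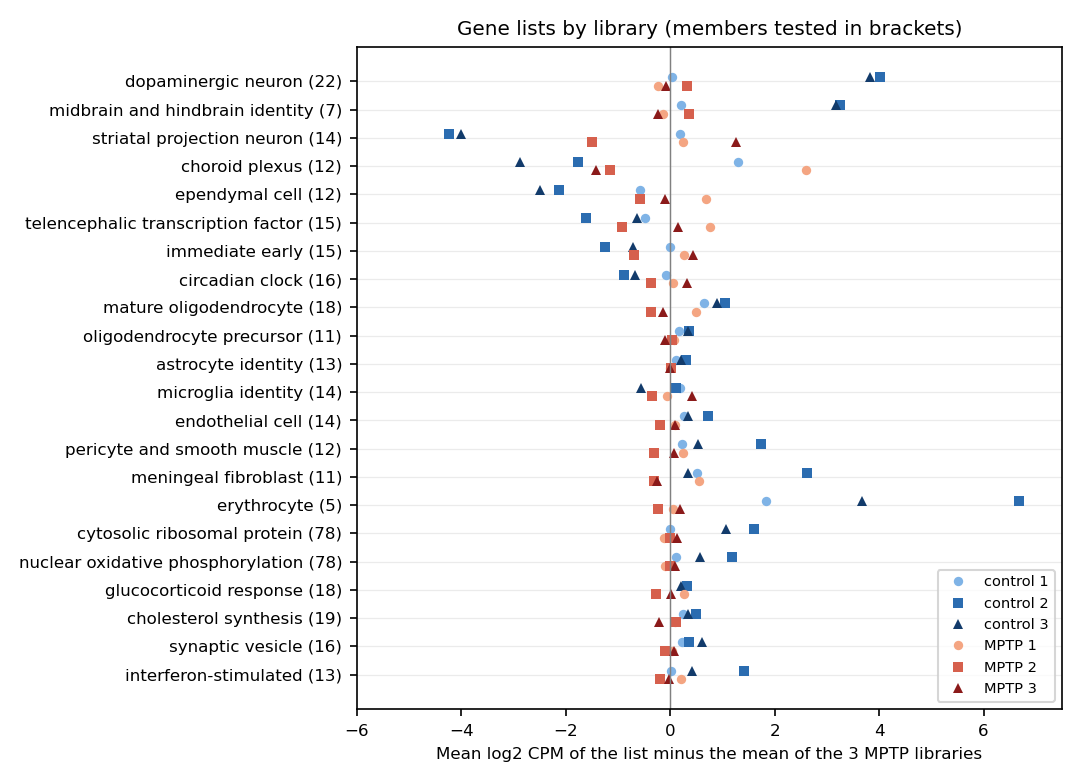
Mean log2 CPM of the tested members of each gene list, minus the mean of the 3 MPTP libraries (horizontal axis), for each control library (blue) and each MPTP library (red). Control 1 lies at the MPTP values for dopaminergic, striatal and ribosomal protein genes and above all MPTP values for mature oligodendrocyte genes (7.85 against 6.84 to 7.71 log2 CPM).

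The genes of dopaminergic neurons, the cells that MPP+ enters through the dopamine transporter, were read next. Th, tyrosine hydroxylase, was at 7.49, 195 and 176 CPM in the 3 saline controls against 5.58, 18.1 and 8.31 CPM with MPTP. Control 1 lay inside the MPTP range, and controls 2 and 3 lay far above it. The log2 fold change was -3.56 (SE 1.25; adjusted p = 0.0878 with DESeq2), -4.12 without control 1, and 0.51 (SE 0.670) with control 1 as the only control. Control 1 was set apart by genes of this kind, so the value without it describes controls 2 and 3 and is no test. Slc18a2, the vesicular monoamine transporter, was at 14.6, 263 and 259 CPM against 20.2, 21.9 and 18.0 CPM, and Ddc, the decarboxylase that makes dopamine, at 16.2, 192 and 185 CPM against 12.6, 25.9 and 10.2 CPM. With control 1 as the only control their values were 0.45 (SE 0.272) and -0.0022 (SE 0.515). Gch1, which makes the cofactor of Th, was at 1.68, 20.4 and 16.5 CPM against 2.17, 1.45 and 1.28 CPM. Control 1 again fell among or below the MPTP libraries.

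Aldh1a1, the aldehyde dehydrogenase of ventral tier nigral neurons, kept an order with control 1: 77.0, 399 and 326 CPM in the controls and 43.7, 42.0 and 57.5 CPM with MPTP. Its log2 fold change was -2.49 (SE 0.602; adjusted p = 0.00449 with DESeq2), -2.92 without control 1 and -0.69 (SE 0.251) with control 1 as the only control, and the gene is also expressed outside dopaminergic neurons. Of 22 dopaminergic genes, 18 were lower, 16 at an unadjusted p under 0.05 (12.9% of all genes tested), and DESeq2 called 5 (1.38%). The median was -3.08 in the fit of all controls, -3.62 without control 1 and 0.083 with control 1 as the only control, and the groups did not overlap in 2 of the 22, a share like the 9.19% of all genes tested. The summed level was 366 to 2459 CPM in the controls and 320 to 498 CPM with MPTP, with control 1 the lowest control and 2 of the 22 at 0 in it. Thus the difference in these genes between saline and MPTP rested on controls 2 and 3.

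Of 10 genes listed for the handling of MPTP itself, 8 were tested. Only the 2 transporters that are dopaminergic markers, Slc6a3 and Slc18a2, had an unadjusted p under 0.05 (12.9% of all genes tested were lower at that p). Maob, the enzyme that turns MPTP into its toxic form, was at 34.2, 26.9 and 22.5 CPM in the saline libraries and 37.0, 38.6 and 30.9 CPM with MPTP, where only MPTP 3 lay below control 1 (0.35, SE 0.201). Maoa, the sister enzyme, was at 54.2, 45.8 and 46.9 CPM against 41.2, 61.4 and 41.6 CPM (-0.028, SE 0.219), and its sign depended on the libraries used. Cyp2d22 and Fmo1, enzymes of MPTP detoxification, had values of 0.28 (SE 0.161) and 0.38 (SE 0.264). Slc22a3 and Slc29a4, transporters that can carry MPP+ in astrocytes and other cells, were at 7.57, 0.844 and 0.882 CPM against 5.08, 4.24 and 9.62 CPM, and at 15.6, 34.2 and 29.8 CPM against 14.2, 19.1 and 5.84 CPM. Their log2 fold changes were 1.02 (SE 0.914) and -1.02 (SE 0.550), and for both control 1 sat among the MPTP libraries. Without control 1, Slc22a3 was at 2.88, a value that describes controls 2 and 3 only. Slc22a2 was at no more than 0.482 CPM in any of the 6 libraries and was not tested.

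**Figure D4:**
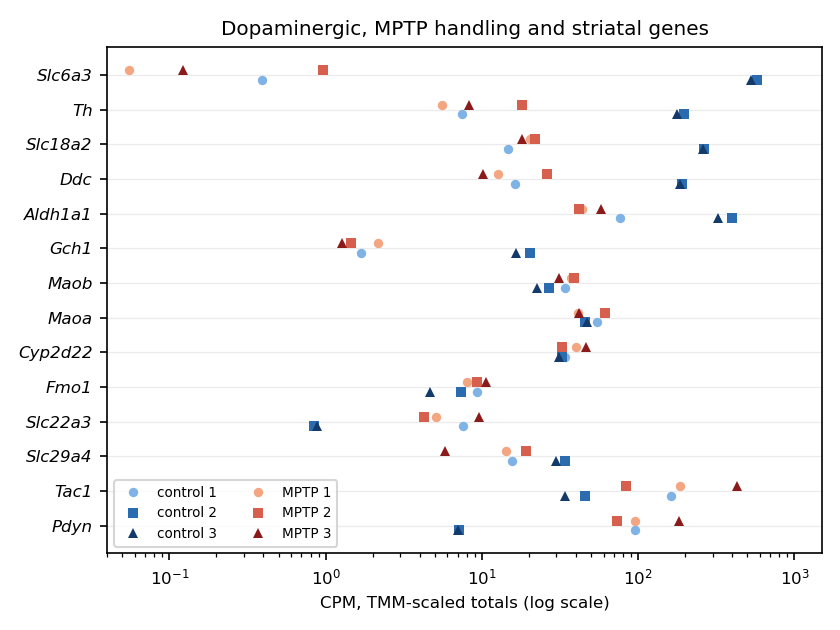
CPM on a log axis of dopaminergic, MPTP handling and striatal genes in each control library (blue) and MPTP library (red), with the symbol shape giving the replicate number. For Th the light blue point of control 1 lies at 7.49 CPM among the MPTP points, while controls 2 and 3 lie at 195 and 176 CPM.

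Regional genes had the same split of the controls. Of 14 midbrain and hindbrain identity genes listed, 7 passed the low-count filter and 7 of these were lower (median -2.92, -4.17 without control 1 and -0.27 with control 1 as the only control). Tal1, a factor of midbrain GABAergic neurons, was at 1.43, 11.1 and 13.2 CPM in the saline libraries and 0.962, 1.31 and 1.13 CPM with MPTP. Pax5, a factor of the midbrain and hindbrain boundary, was at 0.0561, 2.65 and 2.62 CPM against 0.055, 0.0547 and 0 CPM. Control 1 had MPTP-like levels of both, and for Pax5 these lay under the level of 3 counts. The 14 striatal projection neuron genes were all above 0 with a median of 1.55, which was 4.27 without control 1 and 0.20 with control 1 as the only control, and none had an unadjusted p under 0.05. Their summed level was 458 to 5701 CPM in the controls and 1728 to 11935 CPM with MPTP. Tac1, the substance P precursor of striatal neurons, was at 161, 45.7 and 33.9 CPM in the saline libraries and 184, 83.4 and 428 CPM with MPTP.

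Telencephalic transcription factors were counted in the same way. Dlx2, of forebrain GABAergic neurons, was at 6.67, 1.66 and 1.96 CPM in the controls against 14.1, 15.3 and 7.91 CPM with MPTP (1.86, SE 0.527; adjusted p = 0.0355 with DESeq2), and Dlx1 at 28.9, 5.36 and 12.9 CPM against 65.3, 76.9 and 27.4 CPM (1.85, SE 0.573). Dlx2 kept every control below every MPTP library, and in Dlx1 control 1 lay just above MPTP 3. The list of 15 had 12 genes above 0 and a median of 1.22, which was 0.76 with control 1 as the only control and 0.36 with the striatal term. Within MPTP the libraries differed too: the list mean was 4.61, 2.94 and 4.01 log2 CPM in MPTP 1, 2 and 3, and MPTP 2 was below control 1 (3.38). Thalamic neuron genes had a median of -0.006 that was above 0 with other size factors, and 13 hypothalamic neuropeptide genes tested were higher in 7 and lower in 6, with a median of 0.85. Cartpt had the smallest p of these, at 7.29, 323 and 81.6 CPM in the saline libraries and 3.33, 20.6 and 2.89 CPM with MPTP.

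**Figure D5:**
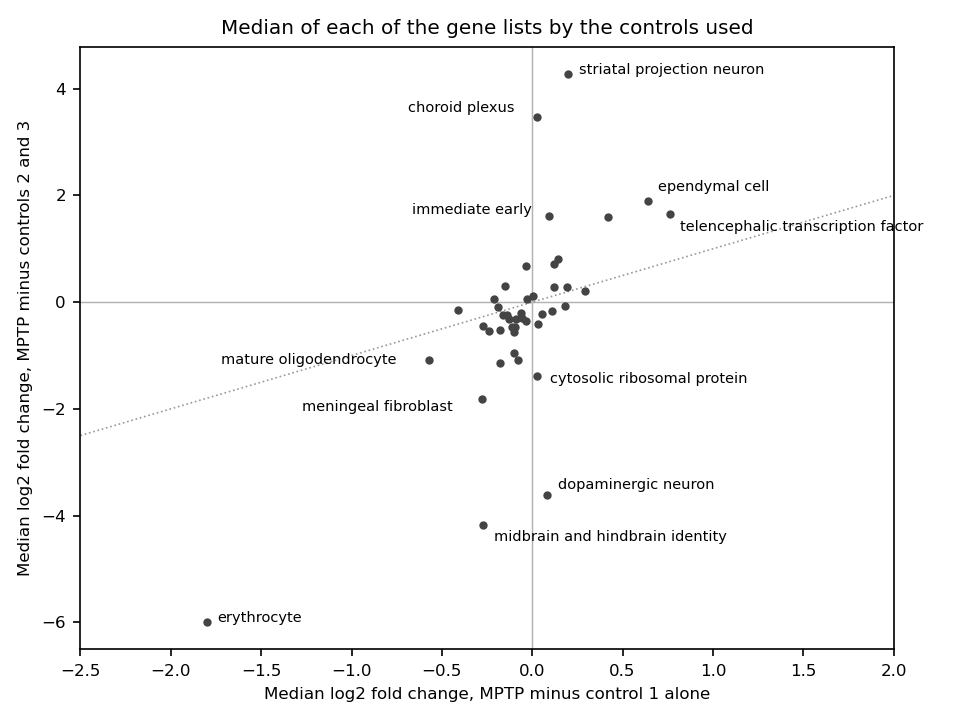
Median log2 fold change of each gene list with control 1 as the only control (horizontal axis) and without control 1 (vertical axis); each point is 1 list, and the dotted line marks equal values. Both axes share the MPTP libraries, so the position along the line is not independent. Dopaminergic genes lie at 0.083 and -3.62, and mature oligodendrocyte genes at -0.57 and -1.08.

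Cytosolic ribosomal protein genes were lower in 77 of 78 (68 at an unadjusted p under 0.05, against 12.9% of all genes tested), with a median of -1.05. The median was -1.39 without control 1 and 0.027 with control 1 as the only control. Rps24 was at 270.0, 995 and 656 CPM in the controls and at 211, 239 and 243 CPM with MPTP, and Rps15 at 284, 1092 and 753 CPM against 214, 234 and 269 CPM. In both control 1 was just above the MPTP libraries. Over the 78 genes, control 1 lay above every MPTP library in 10 (16.8% of all genes tested) and below every MPTP library in 19 (17.8%). Nuclear genes of oxidative phosphorylation, the process that MPP+ blocks, were lower in 72 of 78 (47 at an unadjusted p under 0.05, against 12.9% of all genes tested). The median was -0.70, and it was -0.10 with control 1 as the only control. Atp5j2, a subunit of ATP synthase, was at 83.4, 258 and 154 CPM against 60.1, 67.2 and 73.7 CPM (-1.30, SE 0.352). Uqcr11, of complex III, was at 27.9, 107 and 74.7 CPM against 23.6, 20.3 and 28.7 CPM (-1.53, SE 0.425). The 13 mitochondrially encoded transcripts, which took 9.14% to 12.83% of a library, had a median of -0.19, with 11 lower. Both mt-Nd3 (497, 931 and 642 CPM against 338, 270.2 and 521 CPM) and mt-Co3 had overlapping groups.

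The list means of blood and vessel genes were highest in control 2. Hbb-bs, an adult beta globin, was at 78.4, 2079 and 231 CPM in the controls and at 18.4, 16.1 and 19.6 CPM with MPTP (-5.47, SE 1.22; adjusted p = 0.000406 with DESeq2). The 3 MPTP libraries were alike and every control was higher, by widely different amounts, and the value was -2.12 with control 1 as the only control. All 5 erythrocyte genes tested were lower and were called by DESeq2, which called 1.38% of all genes tested lower. The beta and alpha globin copies are nearly identical and can exchange reads. Of 14 endothelial genes, 12 were lower, 8 at an unadjusted p under 0.05 (12.9% of all genes tested; median -0.46, -0.24 with control 1 as the only control). The groups did not overlap in 6 of the 14 (9.19% of all genes tested), and control 1 lay above every MPTP library in 10 (16.8%). Cldn5, the main tight junction protein of brain vessels, was at 21.7, 128 and 64.8 CPM against 21.6, 18.4 and 24.1 CPM, with control 1 among the MPTP values. Ly6c1, another endothelial gene, was at 70.8, 128 and 89.7 CPM against 45.8, 37.6 and 58.7 CPM (-1.02, SE 0.256; adjusted p = 0.0389 with DESeq2). Pericyte and smooth muscle genes (11 of 12 lower, median -0.92) and meningeal fibroblast genes (11 of 11 lower, median -1.44) had medians of -0.18 and -0.28 with control 1 as the only control. Summed erythrocyte levels were 212 to 6578 CPM in the saline libraries and 49.3 to 64.3 CPM with MPTP, and their part in the other differences was not tested.

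Microglial and inflammatory genes, which are known to respond to MPTP, gave no common direction. Of 14 microglia identity genes, 7 were higher and 7 lower (median 0.0099), with 2 lower at an unadjusted p under 0.05 (12.9% of all genes tested). C1qb, a complement component, was at 44.9, 105 and 49.7 CPM in the saline libraries and 33.2, 27.3 and 47.0 CPM with MPTP (-0.89, SE 0.352; adjusted p = 0.161 with DESeq2), and Aif1 at 3.93, 11.7 and 5.65 CPM against 3.13, 3.34 and 4.44 CPM. Control 2 was highest in both, and control 1 lay in the MPTP range. Of 13 disease-associated microglia genes tested, 8 were lower and 5 higher, with a median of -0.23 (-0.032 with control 1 as the only control). At an unadjusted p under 0.05, 2 were lower (12.9% of all genes tested). Those 2 were Spp1 and Trem2. Spp1, osteopontin, was at 32.5, 85.3 and 40.1 CPM against 20.9, 6.84 and 14.3 CPM (-1.91, SE 0.490; adjusted p = 0.0181 with DESeq2), and Trem2 at 10.2, 25.3 and 13.7 CPM against 7.09, 5.53 and 12.2 CPM. Spp1 is also made by some neurons. Il1b, Tnf, Il6 and Ccl2 were at no more than 0.495 CPM in any of the 6 libraries and were not tested. Nfkb1, a subunit of NF-kappa B, was at 16.9, 15.1 and 13.9 CPM against 18.9, 21.1 and 21.2 CPM (0.41, SE 0.152; adjusted p = 0.108 with DESeq2). It was the 1 of 9 tested inflammatory mediators, out of 16 listed, at an unadjusted p under 0.05 (5.32% of all genes tested were higher at that p).

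Interferon-stimulated genes were lower in 13 of 13 with a median of -0.80, of which 1 had an unadjusted p under 0.05 (12.9% of all genes tested). The median was -0.081 with control 1 as the only control. Rsad2, an antiviral enzyme, was at 3.17, 6.96 and 3.28 CPM in the saline libraries and 1.46, 1.72 and 1.52 CPM with MPTP (-1.51, SE 0.504), and Ifit3 at 11.9, 35.2 and 19.8 CPM against 9.92, 10.7 and 10.3 CPM. In these 2 genes control 2 was again the highest, yet no control fell into the MPTP range. Over the list, the groups did not overlap in 5 of the 13 genes (9.19% of all genes tested). The list mean of control 1, 2.06 log2 CPM, lay inside the MPTP range of 1.86 to 2.26. MHC class I genes (9 of 10 lower, median -0.35) and complement genes (7 of 12 lower, median -0.42) had medians of -0.18 and -0.11 with control 1 as the only control.

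Cell stress lists differed little. Of 13 unfolded protein and integrated stress response genes, 9 were lower, with Ddit3, the stress factor CHOP, at 20.8, 64.5 and 44.0 CPM in the saline libraries and 17.9, 16.0 and 21.2 CPM with MPTP. Heat shock genes had a median of -0.16 with none of 11 at an unadjusted p under 0.05, and p53 target genes a median of 0.062. Of 15 Nrf2 target and antioxidant genes, 9 were lower, 3 at an unadjusted p under 0.05 (12.9% of all genes tested). Gpx4, which protects membrane lipids from peroxidation, led them at 203, 510.3 and 343 CPM against 169.8, 173 and 193 CPM (-0.98, SE 0.318). The medians of these lists with control 1 as the only control were -0.056, -0.06, 0.002 and -0.16 in the order given. Lysosome and autophagy genes were lower in 12 of 16, with Map1lc3a at 96.3, 419 and 303 CPM against 80.8, 92.8 and 89.7 CPM (-1.63, SE 0.472; adjusted p = 0.0419 with DESeq2), where control 1 was close to the MPTP values.

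Of 13 Parkinson's disease genes tested, 6 were higher and 7 lower. Park7, encoding the redox protein DJ-1, was at 92.5, 254 and 178 CPM in the controls and 83.0, 91.4 and 88.8 CPM with MPTP (-0.99, SE 0.314), and Uchl1, a ubiquitin hydrolase of neurons, at 503, 1373 and 1073 CPM against 411, 535 and 455 CPM (-1.07, SE 0.359). Dnajc13, an endosomal protein, was at 48.4, 25.6 and 35.3 CPM against 58.0, 52.2 and 60.2 CPM (0.64, SE 0.238). The adjusted p with DESeq2 was 0.0892, 0.0919 and 0.144, and with control 1 as the only control the values were -0.078, -0.11 and 0.23.

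Neuronal activity and clock genes were mostly higher with MPTP, with few tests passed. Npas4, an immediate early factor restricted to neurons, was at 2.69, 1.30 and 1.90 CPM in the saline libraries and 5.30, 4.41 and 5.90 CPM with MPTP, without overlap (1.40, SE 0.429; adjusted p = 0.0642 with DESeq2). Ier2, another immediate early gene, had the opposite order at 3.08, 10.6 and 7.61 CPM against 4.29, 2.49 and 3.10 CPM (-1.11, SE 0.481). Of 15 immediate early genes, 12 were higher with a median of 0.95, which was 0.094 with control 1 as the only control and -0.12 with the striatal term. Nr1d1, the clock repressor REV-ERB alpha, was at 63.6, 32.8 and 36.6 CPM against 84.0, 65.0 and 92.5 CPM (0.86, SE 0.281). Of 16 clock genes, 14 were higher with a median of 0.47, and 0.12 with control 1 as the only control.

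Among transmitter genes, Gad2, which makes GABA, was at 691, 158 and 186 CPM in the saline libraries and 581, 945 and 624 CPM with MPTP, and Grm5, a metabotropic glutamate receptor, at 252, 38.5 and 79.3 CPM against 358, 229 and 419 CPM. Control 1 held MPTP-like levels of both. GABAergic and glutamatergic lists had medians of 0.37 and 0.48, which were -0.034 and 0.14 with control 1 as the only control. Growth factor genes had no common direction (8 of 16 higher), although Igf1 (5.61, 30.4 and 20.4 CPM against 5.69, 4.98 and 4.05 CPM; adjusted p = 0.0494 with DESeq2) and Nrtn, a neurotrophic factor of the GDNF family (2.38, 9.28 and 4.24 CPM against 1.70, 1.15 and 1.64 CPM; adjusted p = 0.0517), were lower. For Igf1 control 1 lay among the MPTP values.

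With control 1 as the only control, the gene past the adjusted threshold was Cxadr, the coxsackievirus and adenovirus receptor, at 1.23 CPM in control 1 and 28.5, 29.4 and 27.3 CPM with MPTP. Controls 2 and 3 held 22.9 and 23.5 CPM, so the low value belonged to control 1 alone. Gbp7 (1.49 CPM in control 1, 9.55 and 7.91 CPM in the other controls, 9.78, 9.85 and 11.0 CPM with MPTP) and Gas7 (13.4, 65.0 and 155 CPM against 313, 153 and 342 CPM) also had control 1 lowest. Plcxd1 and Lrp8 completed the 5 with the smallest p in that direction, with values of 2.14 and 1.63. On the lower side the 5 genes were Hbb-bs, Serpinb1a, Hba-a2, Pvalb and Hbb-bt.

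In the authors' deposited table, 314 of 14790 genes with a call were marked up with MPTP (2.12%) and 864 down (5.84%). It marked Il33, Serpinb1a, Tsc22d3, Mog, Th and Slc6a3 down and Chrdl1, Slc14a2, Zic1, Zic2, Zic4 and Zic5 up. The authors' deposited table left Pmp22, Tmem267 and Rfx4 unmarked, whose log2 fold changes lay within 1 of 0 in the fit here.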

How the data were processed

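RNA from the midbrain of C57BL/6 mice was sequenced as mRNA libraries, 3 mice per group, per the labels. Per the file headers, the authors' table pairs a raw read count per gene with an FPKM value, the count scaled by them for transcript length and library size. Its calls of up or down were made by the authors with DESeq2, per the file headers, and the sources used here do not say whether that p-value was adjusted. The build mm9 is named in the submitters' processing notes; the alignment and counting tools and strandedness are not given in the sources used here, so overlapping genes cannot be told apart by strand.

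Of 29001 lines, 10 were split annotation of the line before and were left out. The other 28991 hold 22036 Ensembl genes and 6955 further loci with no known gene (0.983% to 1.225% of a library's counts). All count columns matched a sample. No 2 libraries agreed within sampling noise.

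Counts were tested in R 4.3.3 with edgeR 4.0.16 (quasi-likelihood test, robust, TMM factors, filterByExpr, 9 libraries, contrast MPTP minus control) with Benjamini-Hochberg adjustment over 17285 genes. The common biological coefficient of variation was 0.394. DESeq2 1.42.0 and limma 3.58.1 (voom) were alternatives, as were other size factors and filters, the 6 libraries alone, fits without robust estimation, a block for the replicate number, a striatal covariate, and leaving out libraries. Leaving out control 1 together with MPTP+PF4 2 was added after the data were seen. The fit with control 1 as the only control was set with the split of the controls known. The fits were tested on simulated counts. Lists were described by counts and medians, beside all genes tested, and all members of a list that passed the filter were counted.

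The members and lists were chosen with earlier results of these data known. Genes named were Il33, Serpinb1a, Tsc22d3, Mog, Th, Slc6a3, Slc18a2 and Ddc, the 12 lower and 12 higher genes with the smallest p among those with an Ensembl identifier and a symbol, the MPTP handling genes, 2 to 4 members of each list with the smallest p, and 5 genes per direction against control 1 alone. Other genes were named after their values were seen: En1, Gfap, Fkbp5, Foxj1, Ttr, Zic4, Il1rl1, the untested cytokines, the single-library transcripts, and the remaining oligodendrocyte and serpin members named. For some lists not all genes the rule gives are printed, and some genes are not reported here.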

Additional observations from a re-analysis of the deposited data

How the results depend on the processing

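The number of genes past an adjusted p of 0.05, 0 with edgeR, was 291 with DESeq2, 8943 with limma voom with sample weights, 1 with control 1 as the only control (MPTP+PF4 2 also left out), and 5629 with control 1 and MPTP+PF4 2 left out. Leaving out 1 library at a time it was 0 to 4577, the highest without control 1 and 0 without any other library. The number at an unadjusted p under 0.05, 3154 with edgeR, was 10138 with limma voom, 830 with the striatal list mean as a covariate, 244 with control 1 as the only control, and 7941 with control 1 and MPTP+PF4 2 left out. Leaving out 1 library at a time it was 1038 (without control 2) to 7496 (without control 1), with 1466 without control 3, 1556 without MPTP 1 and 1811 without MPTP 3. The cause of these shifts was not tested.

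Over 18 alternatives, values for 130 named genes kept direction and side of the threshold in 1925 cases, passed it in 392 and changed sign in 16; list medians of 44 lists stayed within the spread in 711 cases and moved in 81. With control 1 as the only control, the log2 fold change changed sign to 0.29 for Cartpt, 0.1 for Chrd, -0.011 for Fmo1, 0.16 for Hspb1, 0.094 for Ier2, 0.42 for Pomc, 0.45 for Slc18a2, -0.26 for Slc22a3 and 0.51 for Th. Maoa changed sign to 0.088 with control 1 and MPTP+PF4 2 left out, 0.042 with library totals, 0.098 with the striatal covariate, 0.097 without MPTP 1, 0.068 without MPTP 3 and 0.054 without control 1, with a range of -0.22 to 0.097 over libraries left out. Plcxd1 changed to -0.018 without control 3, in a range of -0.018 to 2.49.

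Deviations from the group mean correlated at -0.291 to 0.519 between same-numbered libraries of different groups (0.13, 0.174 and -0.122 for control with MPTP). Between libraries of different number the range was -0.539 to 0.489. With 3 libraries per group, these correlations cannot decide whether the numbers pair the mice or mark a shared handling. With the replicate number as a block, 0 genes passed the adjusted threshold and 3922 the unadjusted p, 1739 higher and 2183 lower. At this depth, transcripts under about 3 counts per library could not be compared.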

Other observations

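Some transcripts were lower in 1 of the 6 libraries than in all the rest. They were counted among 13243 genes with more than 3 CPM in at least 1 library, where 1 library lay at least 1 log2 unit below all the others after 0.3 CPM was added. There were 9 such genes in control 1, 234 in control 2, 63 in control 3, 11 in MPTP 1, 37 in MPTP 2 and 38 in MPTP 3. In the opposite direction the counts were 6, 225, 37, 61, 82 and 23.

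In control 2, Zc3h11a was at 0 CPM against 28.2 CPM in control 1, 68.0 CPM in control 3 and 62.3 to 69.8 CPM with MPTP. Scn2a, a sodium channel of excitatory neurons, had 0.663 CPM there, while controls 1 and 3 held 178 and 85.4 CPM. In control 3, Twsg1, a BMP-binding protein, was at 0.551 CPM against 39.6 and 36.7 CPM in the other controls, and Col25a1 was at 0.221 CPM against 106 and 31.5 CPM.

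In MPTP 1, Hnrnpa3, an RNA-binding protein, was at 20.1 CPM against 239 and 227 CPM in the other MPTP libraries. It was also low in MPTP+PF4 1, at 14.9 CPM, against 256 and 318 CPM in the other MPTP+PF4 libraries. Rps27 (8.99 CPM in MPTP 1, 10.5 CPM in MPTP+PF4 1) and Zfp398 (4.37 and 3.57 CPM) were likewise low in both. Syt14 (1.46 and 25.0 CPM) and Peak1 (6.54 and 43.1 CPM) were low in MPTP 1 but not in MPTP+PF4 1. Gm20716 was at 0 CPM in MPTP 3 against 95.9 and 143 CPM in the other MPTP libraries, and Fgf2 at 0.335 CPM against 12 and 10.9 CPM. Genes that only MPTP 2 held at a high level included the hypothalamic neuropeptide genes Oxt, Avp and Gal.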
